A study of Mus musculus with 14 samples.

Results

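Plantaris muscle at day 5 of functional overload was compared with plantaris muscle at day 0. The members are the arrays labelled day 5 or day 0, which are 4 of the 14 arrays in the series, and every gene that a probe set of the array names without ambiguity, 19938 genes in all. The mice were male, of strain C57BL/6J and 5 months old, with no altered allele. At day 5 the muscle had been overloaded by synergist ablation, an operation that removes the muscles working alongside the plantaris, and the day 0 labels give no treatment. Each day has 2 arrays, one hybridised with RNA pooled from right and one with RNA pooled from left plantaris muscles of 6 animals. Whether both sides came from the same 6 animals is not stated. A p-value here measures the spread between such pools, part of which may be technical, rather than between single animals. No sham-operated muscle was analysed here, so overload and the surgery around it cannot be told apart.

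The plantaris is a fast ankle extensor of the lower leg. After its synergists are removed it carries more load and grows over the following weeks. Satellite cells, the stem cells of muscle, leave quiescence, divide and fuse with fibres or with each other. Macrophages and fibroblasts enter or multiply, and new matrix is laid down. Myosin and troponin genes of the embryonic muscle are known to return while fibres are being built or repaired, and their presence marks such fibres in sections.

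Values are log2 of the deposited intensity, written as the right pool and then the left pool of a day. A difference is day 5 minus day 0 on that scale with its standard error (±), so that 1 is a 2-fold change. A gene is said to have risen or fallen where limma's adjusted p was under 0.05. Of the 19938 genes, 5384 rose (27.0%) and 7596 fell (38.1%), together 65.1%. Because so many genes passed, counts past 2-fold are given as well. Of all genes 1723 rose by over 2-fold (8.64%) and 856 fell by over 2-fold (4.29%), and 413 rose and 104 fell by over 4-fold. The larger changes were mostly rises: 66.8% of those past 2-fold went up, against 41.5% of all calls. The median difference over all genes was -0.16. In the dimmest of 3 equal classes, 6646 genes, it was -0.28, with 3087 falls and 348 rises. The class held the genes whose mean log2 intensity over all arrays of the series was at most 7.5. It was thus not chosen by day 0 signal. A gene that fell and stayed low could enter it, and one that rose could leave it. Gdap1, with a day 0 mean of 10.00, was in the class. Without that class the median was 0.01 and 52.4% of the calls were rises. How far this way of sorting genes set these counts and shares was not tested. Both day 5 pools lay above both day 0 pools in 32.2% of genes and below both in 52.5%, and these are the shares to read the non-overlap statements below against.

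**Figure D1:**
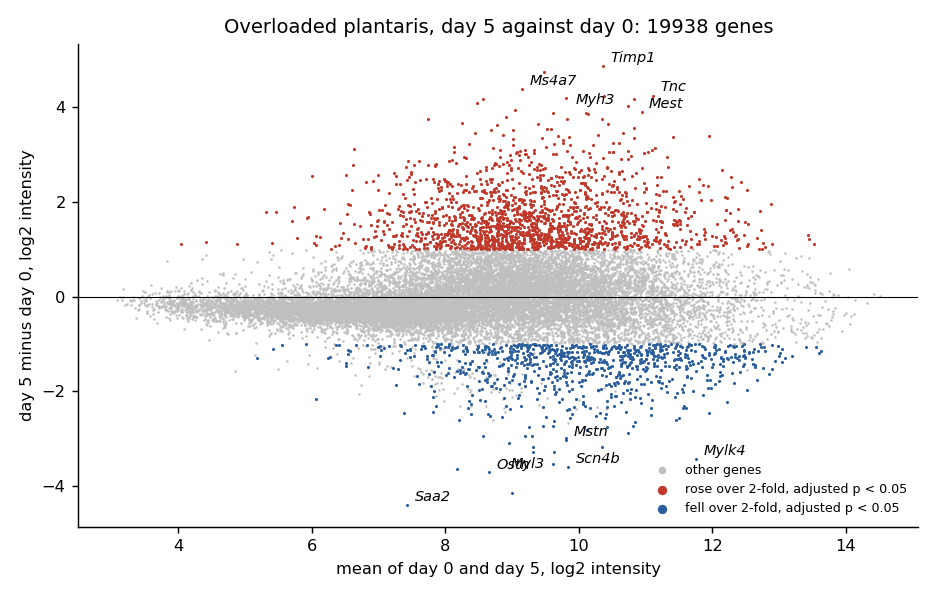
Difference between day 5 and day 0 (vertical, log2 intensity) against the mean of the 2 days (horizontal, log2 intensity) for all 19938 genes, with rises over 2-fold in red and falls over 2-fold in blue (limma adjusted p under 0.05). The rises reach 4.88 for Timp1 and outnumber the falls past 2-fold, 1723 against 856.

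Some values depend on single pools. The day 0 pools differed in genes of the liver: Alb, serum albumin, read 12.75 and 13.82 there, and Ttr, transthyretin, read 10.53 and 12.74. At day 5 the left pool was again the higher, with 10.49 and 12.98 for Alb and 8.57 and 11.11 for Ttr. Over the 14 hepatocyte genes the median difference was -2.03 and 5 fell, and without the left day 0 pool the median was -0.92 and 1 fell. The count was 13 without the right day 0 pool, 1 without the right day 5 pool and 10 without the left day 5 pool. Granule genes of developing neutrophils were high in the right day 0 pool instead, such as Mpo, myeloperoxidase, with 9.86 and 8.19 at day 0 and 7.50 and 7.31 at day 5. Of these 8 genes 5 fell, and 1 did without the right day 0 pool, 3 without the right and 2 without the left day 5 pool. Results that move with either set are given below with the value without that pool. Muscle was present in every array: Acta1, skeletal alpha-actin, read 14.38 and 14.40 at day 0 and 14.31 and 14.20 at day 5, and Des, desmin, read 13.81 and 13.79 at day 0 and 13.88 and 13.71 at day 5, and neither was called (-0.13 ± 0.07, adjusted p = 0.0909, and -0.01 ± 0.07, adjusted p = 0.932). In whole muscle, more cells of a type and more RNA per cell cannot be told apart.

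The 12 largest rises came from matrix genes, macrophage genes and developing muscle. Timp1, a secreted inhibitor of matrix metalloproteases, rose most: it read 8.13 and 7.73 at day 0 and 12.83 and 12.78 at day 5, a rise of 4.88 ± 0.11 or 29.4-fold (adjusted p = 4.96e-10). Ms4a6d, Ms4a7 and Ms4a4a, membrane proteins found on macrophages, rose by 4.75 ± 0.09, 4.39 ± 0.07 and 4.18 ± 0.10. Tnc, which encodes the matrix glycoprotein tenascin-C, rose by 4.24 ± 0.15, Cthrc1 by 4.23 ± 0.09, the collagen cross-linking enzyme gene Lox by 4.18 ± 0.08 and the prolyl hydroxylase subunit gene P4ha3 by 3.94 ± 0.09. Ccl8, a chemokine of the monocyte-attracting family, rose by 4.09 ± 0.14, C3ar1, the receptor for complement fragment C3a, by 4.02 ± 0.09, Myh3, embryonic myosin heavy chain, by 4.20 ± 0.22 and the imprinted gene Mest by 3.91 ± 0.12. All 12 had both day 5 pools above both day 0 pools, as the rule that named them requires.

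The 12 largest falls were, apart from Saa2, in genes whose day 0 pools lay close together. Ostn, osteocrin, a secreted peptide that binds the natriuretic clearance receptor, read 10.59 and 10.42 at day 0 and 7.08 and 6.51 at day 5 and fell by 3.72 ± 0.18 (adjusted p = 2.68e-08). Scn4b, a beta subunit of voltage-gated sodium channels, read 11.62 and 11.66 at day 0 and 8.28 and 7.81 at day 5 and differed by -3.60 ± 0.19. Mylk4, a kinase of the myosin light chain kinase family, went from 13.51 and 13.43 to 10.28 and 9.80, a difference of -3.43 ± 0.18. Timp4, another metalloprotease inhibitor, went the other way from Timp1, from 10.94 and 10.97 to 7.78 and 7.55 (-3.29 ± 0.15). Gdap1, a protein of the outer mitochondrial membrane, lay in the dimmest class and differed by -3.66 ± 0.14, Smco1 by -3.53 ± 0.18, Odf3l2 by -4.15 ± 0.12, Adhfe1 by -3.19 ± 0.15, Plcd4, a phospholipase C, by -3.18 ± 0.17, Lrrc38, a potassium channel auxiliary subunit, by -3.10 ± 0.12 and the ventricular and slow-fibre light chain gene Myl3 by -3.29 ± 0.33. The largest value, Saa2, an acute phase protein of the liver, rests on pools that were far apart: it read 8.0 and 11.27 at day 0 and 5.46 and 5.0 at day 5, lay in the dimmest class, and its left day 0 value stands with the liver genes described above. Its difference was -4.40 ± 0.86 with both day 0 pools and -2.77 without the left one (adjusted p = 0.00469).

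**Figure D2:**
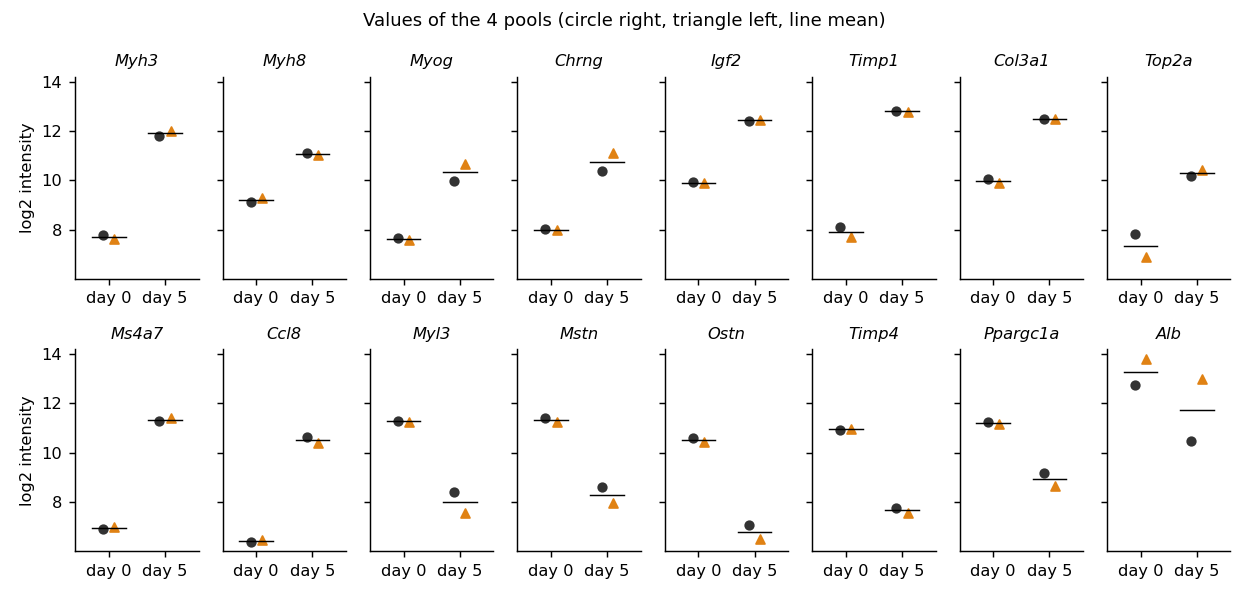
Log2 intensity (vertical) in the right (circle) and left (triangle) pools of day 0 and day 5 for 16 genes, with the mean of each day as a line. Timp1 moves from 8.12 and 7.72 to 12.83 and 12.78 without overlap, whereas the pools of Alb lie far apart within both days.

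The sarcomere genes listed as of embryonic, perinatal and cardiac type all rose. Of 7 measured, 7 rose, all by over 2-fold, with a median of 2.43. The list does not hold every sarcomere gene of the heart. Myl3, the ventricular and slow-fibre light chain gene, stands with the slow-fibre genes below and differed by -3.29 ± 0.33. Myh3, the myosin heavy chain of embryonic fibres, read 7.80 and 7.62 at day 0 and 11.80 and 12.02 at day 5 and was 18.3-fold higher (adjusted p = 4.02e-08). Myh8, the perinatal heavy chain, read 9.11 and 9.30 at day 0 and 11.11 and 11.02 at day 5, a rise of 1.86 ± 0.20 (adjusted p = 1.05e-05). Tnnt2, cardiac troponin T, which is also made in embryonic skeletal muscle, rose by 3.05 ± 0.11, and the atrial and embryonic light chain gene Myl4 by 2.53 ± 0.08. Actc1, cardiac alpha-actin, read 11.21 and 11.24 at day 0 and 13.55 and 13.75 at day 5 and rose by 2.43 ± 0.18, while the adult form, Acta1, was not called. Mybph, a myosin-binding protein, and Myl6b, a light chain of developing muscle, rose by 2.41 ± 0.13 and 2.09 ± 0.13. In each of the 7 genes both day 5 pools lay above both day 0 pools.

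Day 5 lay well above day 3 in these genes. Myh3 read 9.59 and 9.38 at day 3, and its difference from day 3 to day 5 was 2.43 ± 0.22 (adjusted p = 8.12e-05) beside 4.20 ± 0.22 from day 0. Myh8 had not left its day 0 level at day 3, where it read 9.22 and 8.95, and then rose by 1.98 ± 0.20 (adjusted p = 0.000178). Of the 7 genes 6 rose between day 3 and day 5, where 6.41% of all genes did, and Mybph did not pass (0.38 ± 0.13, adjusted p = 0.0742). Between day 5 and day 7 none of the 7 was called by limma, where 1.15% of all genes were, 3 had an unadjusted p under 0.05, and the values for Myh3 and Myh8 were 0.62 ± 0.22 (adjusted p = 0.249) and 0.75 ± 0.20 (adjusted p = 0.118).

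Genes of the adult fast sarcomere fell. Of 15, 14 fell and 5 did so by over 2-fold, with a median of -0.87. Mylk2, the skeletal myosin light chain kinase, read 12.74 and 12.67 at day 0 and 10.89 and 10.54 at day 5 and differed by -1.99 ± 0.14 (adjusted p = 3.38e-07). Mybpc2, fast myosin-binding protein C, differed by -1.53 ± 0.15, fast troponin I, Tnni2, by -1.31 ± 0.12, and the Z-disc protein gene Myoz1 by -1.25 ± 0.14. The fast heavy chains fell less: Myh4, of type IIb fibres, by 0.87 ± 0.12, Myh2, of type IIa, by 0.53 ± 0.15, and Myh1, of type IIx, by 0.40 ± 0.11. For Myh4 the pools read 13.91 and 13.95 at day 0 and 13.28 and 12.85 at day 5. In all 15 genes both day 5 pools lay below both day 0 pools, and the left day 5 pool was the lower in most of those named here. The calls of the 2 last heavy chains were the weakest: Myh1 differed by -0.20 without the left day 5 pool (adjusted p = 0.0699), and Myh2 had an adjusted p of 0.0597 with only the arrays of the 2 days.

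Slow-fibre genes went both ways. Of 12, 5 rose and 7 fell. Among those that rose were slow troponin I, Tnni1, with 9.40 and 9.47 at day 0 and a rise of 2.49 ± 0.25 (adjusted p = 5.71e-06), slow and cardiac troponin C, Tnnc1, with a rise of 1.80 ± 0.32, and the tropomyosin gene Tpm3, with 1.55 ± 0.08. The 2 troponin genes are also expressed by developing fibres. The value of Tpm3 is for the gene and does not separate its slow-fibre transcript from others. Among those that fell were Myl3, with 11.29 and 11.26 at day 0 and 8.42 and 7.55 at day 5 (-3.29 ± 0.33, adjusted p = 6.53e-06), Myl2, the slow regulatory light chain, with -1.77 ± 0.35, and Myh7, the slow heavy chain, with -1.40 ± 0.42 (adjusted p = 0.0136). Myl2 and Myh7 were the less certain, since the day 5 pools differed: 9.81 and 8.61 for Myl2 and 8.76 and 8.11 for Myh7, though none reached a day 0 pool. Myh7 had an adjusted p of 0.0536 without the right day 0 pool and 0.11 without the left day 5 pool, and 4 of the 12 genes fell where either of these pools was left out.

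Regulators of myogenesis rose unevenly. Of 22 genes, 14 rose (8 by over 2-fold) and 5 fell, with a median of 0.59. Mymk, myomaker, the membrane protein that myoblasts need to fuse, read 8.61 and 8.61 at day 0 and 12.03 and 12.48 at day 5 and was 12.5-fold higher (adjusted p = 4.25e-09). Myog, myogenin, the transcription factor of differentiating myoblasts, read 7.67 and 7.60 at day 0 and 9.97 and 10.67 at day 5, a rise of 2.69 ± 0.17. Ncam1, an adhesion molecule of activated satellite cells and denervated or regenerating fibres, rose by 2.72 ± 0.12. Hes6, a helix-loop-helix gene expressed in differentiating myoblasts, rose by 1.27 ± 0.21, Sdc3, a syndecan of satellite cells, by 1.84 ± 0.08, and the laminin receptor subunit gene Itga7 by 1.27 ± 0.09.

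Myod1, which commits cells to the muscle fate, read 10.33 and 10.33 at day 0 and 11.20 and 11.64 at day 5 and rose by 1.09 ± 0.12. Pax7, which marks satellite cells, rose by 0.44 ± 0.09 (adjusted p = 0.00173). Mymx, the second fusion protein, rose by 0.39 ± 0.15 with an adjusted p of 0.0422. That call was lost without the right day 0 (0.193), the left day 0 (0.0504) or the left day 5 pool (0.438), with side as a block (0.0519) and after quantile normalization (0.138). Myf6 and Mef2a, both active in mature fibres, were not called, at 0.04 ± 0.10 and -0.04 ± 0.07. Against day 3, 11 of the 22 rose, Mymk by 1.73 ± 0.13, Ncam1 by 1.51 ± 0.12 and Myog by 0.66 ± 0.17, while Myod1 was not called (-0.17 ± 0.12, adjusted p = 0.357). That count was 3 and 4 without the right and left day 3 pool and 8 and 4 without the right and left day 5 pool, and Myog reached an adjusted p of 0.126 in these fits, with its call lost without either day 3 pool or the left day 5 pool. In the Notch pathway, which keeps satellite cells from differentiating, 7 of 11 genes rose and 2 fell. The receptor gene Notch2 rose by 1.34 ± 0.09, its ligand gene Jag1 by 0.77 ± 0.09 and the nuclear effector gene Rbpj by 0.86 ± 0.09, while the target gene Hes1 fell by 0.49 ± 0.08.

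The subunits of the acetylcholine receptor moved in opposite directions. The receptor of adult end plates holds the epsilon subunit, and the receptor of embryonic and denervated muscle holds gamma in its place. Chrng, the gamma subunit, read 8.02 and 7.98 at day 0 and 10.37 and 11.12 at day 5 and rose by 2.75 ± 0.20 (adjusted p = 5.01e-07). Chrne, the epsilon subunit, read 10.39 and 10.33 at day 0 and 8.95 and 8.58 at day 5 and fell by 1.6 ± 0.11 (adjusted p = 3.72e-07). Chrna1, the alpha subunit common to both, rose by 2.22 ± 0.10, and Chrnd, the delta subunit, by 2.03 ± 0.14. Runx1, a transcription factor that rises in denervated muscle, read 9.13 and 8.83 at day 0 and 12.17 and 12.29 at day 5, a rise of 3.25 ± 0.10, and it is also expressed by blood cells. The synaptic kinase gene Musk and the receptor-clustering gene Rapsn were not called, at -0.14 ± 0.07 and -0.22 ± 0.10, and Ache, acetylcholinesterase, fell by 0.94 ± 0.11. Against day 3, Chrng rose by 1.48 ± 0.20 and Chrna1 by 0.94 ± 0.10, and Chrne and Ache rose as well, by 0.65 ± 0.11 and 0.75 ± 0.11, so their day 5 level was below day 0 but above day 3. The call of Chrne against day 3 was lost without the right day 3 pool (adjusted p = 0.0529).

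The promoters of Chrng and Chrna1 are 2 of 4 candidates. These were named genes of the myogenic, developmental sarcomere and neuromuscular lists that rose and hold 2 or more E-boxes. The E-box is the short motif that myogenin and MyoD bind, and its presence was thus a condition of the choice. Tnnt2, with 3 E-boxes and a larger rise, and Hes6, with 2, are not printed. The bases are the 250 before the transcript start, 5′ to 3′ on the gene's strand, from RefSeq (GRCm38.p6), and capitals mark CAGCTG and, on either strand, CAGGTG.
Chrng, chr1:87205561-87205810, plus strand: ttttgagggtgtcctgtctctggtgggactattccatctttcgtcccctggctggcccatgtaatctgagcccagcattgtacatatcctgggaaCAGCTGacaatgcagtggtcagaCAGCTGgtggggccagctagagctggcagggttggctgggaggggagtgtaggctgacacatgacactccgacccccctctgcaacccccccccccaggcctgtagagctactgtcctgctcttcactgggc
Chrna1, chr2:73580339-73580588, minus strand: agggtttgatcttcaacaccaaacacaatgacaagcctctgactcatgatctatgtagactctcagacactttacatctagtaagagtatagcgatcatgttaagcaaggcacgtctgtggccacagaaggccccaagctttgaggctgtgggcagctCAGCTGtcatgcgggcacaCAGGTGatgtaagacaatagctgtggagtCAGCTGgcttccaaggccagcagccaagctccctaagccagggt
Chrng holds CAGCTG at 155 and 132 bases before the start, and Chrna1 holds CAGCTG at 92 and 44 and CAGGTG at 73 bases before it. Of 27025 genes with a promoter in the table, 27.4% hold at least 1 of these E-boxes within 250 bases and 5.1% hold 2 or more. Among the neuromuscular genes 6 of 8 promoters hold 1, among the developmental sarcomere genes 2 of 7, and among the myogenic regulators 1 of 15. A match in these letters is a description and not a bound site.

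Genes of cell division rose throughout. Of 36 mitosis genes, 36 rose and 33 did so by over 2-fold, with a median of 2.43, and of 33 DNA replication genes 32 rose, 21 by over 2-fold, with a median of 1.29. Plk1, a kinase of mitotic entry, read 7.89 and 7.39 at day 0 and 10.55 and 10.94 at day 5 and was 8.62-fold higher (adjusted p = 1.03e-07). Bub1, of the spindle checkpoint, rose by 3.16 ± 0.22, Anln, anillin, by 2.88 ± 0.17, Kif20a, a kinesin of cytokinesis, by 2.81 ± 0.20 and the cyclin gene Ccna2 by 3.17 ± 0.29. Rrm2, a subunit of the enzyme that makes deoxynucleotides, rose by 2.74 ± 0.25, Mcm6, of the replication helicase, by 2.30 ± 0.17 and Tyms, thymidylate synthase, by 2.02 ± 0.10. Rfc4 was the replication gene not called, at 0.04 ± 0.13.

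The day 0 pools were unequal in these genes. Mki67, the proliferation marker Ki-67, read 9.0 and 7.77 at day 0 and 10.78 and 11.08 at day 5 (2.54 ± 0.38, adjusted p = 0.000144), and Top2a, topoisomerase II alpha, read 7.82 and 6.89 and 10.17 and 10.42 (2.94 ± 0.28). The right day 0 pool, which was the higher here, was also the higher in neutrophil granule genes; the part of the one in the other was not tested. The median of the mitosis list was 2.62 without the right day 0 pool and 2.16 without the left. Between day 3 and day 5 and between day 5 and day 7 none of the 36 mitosis genes was called by limma, with 2 and 0 at an unadjusted p under 0.05, and Mki67 differed by 0.34 ± 0.38 (adjusted p = 0.564) and 0.27 ± 0.38 (adjusted p = 0.895). Inhibitors of the cycle were mixed: of 15, 6 rose and 4 fell, or 2 without the left day 0 pool. Over all genes 27.0% rose and 38.1% fell. Cdkn1c, an imprinted inhibitor of cyclin-dependent kinases, rose by 0.87 ± 0.10 and Gadd45a by 0.86 ± 0.08, Cdkn1b was not called (-0.13 ± 0.11), and Ccng1, a p53 target, fell by 0.70 ± 0.09.

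The promoters of Plk1 and Top2a are printed because they were the mitosis genes with the largest rises among those named that carry both motifs known from genes switched on late in the cycle. Capitals mark CCAAT, or ATTGG on the other strand, which NF-Y binds, and the cell cycle element TTTGAA or TTTAAA, or TTCAAA on the other strand, over the same 250 bases of RefSeq (GRCm38.p6).
Plk1, chr7:122159185-122159434, plus strand: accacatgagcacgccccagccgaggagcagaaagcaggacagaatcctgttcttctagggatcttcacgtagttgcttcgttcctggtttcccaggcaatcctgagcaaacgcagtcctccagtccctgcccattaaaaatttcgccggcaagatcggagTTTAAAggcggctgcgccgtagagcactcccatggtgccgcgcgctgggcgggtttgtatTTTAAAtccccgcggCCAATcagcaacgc
Top2a, chr11:99024190-99024439, minus strand: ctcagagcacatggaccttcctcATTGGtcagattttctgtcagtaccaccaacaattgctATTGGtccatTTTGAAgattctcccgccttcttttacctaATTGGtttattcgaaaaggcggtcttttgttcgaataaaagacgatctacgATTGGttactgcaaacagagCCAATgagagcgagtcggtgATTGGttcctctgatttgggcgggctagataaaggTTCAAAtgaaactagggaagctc
Plk1 holds CCAAT at 14 and TTTAAA at 89 and 29 bases before the start. Top2a holds the CCAAT motif at 227, 189, 149, 98, 78 and 58 bases and the cell cycle element at 179 and 23 bases. Of the 31 mitosis genes in the promoter table, 24 (77.4%) hold CCAAT against 34.5% of all promoters, and 15 (48.4%) hold it at 2 or more places against 10.5%. For the cell cycle element the shares are 41.9% and 25.5%, and for both motifs together 35.5% and 9.0%. In the DNA replication genes CCAAT is in 16 of 28 promoters.

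Matrix genes changed, both those of its fibres and those of the enzymes that build and cut them. Of 19 collagen genes 18 rose, 11 by over 2-fold, with a median of 1.47. The chains of type I collagen, the main fibre of tendon and scar, read 10.90 and 10.73 at day 0 and 13.44 and 13.52 at day 5 for Col1a1, a rise of 2.67 ± 0.10, and Col1a2 rose by 2.37 ± 0.09. Col3a1, of the thinner reticular fibres, read 10.05 and 9.89 at day 0 and 12.50 and 12.49 at day 5 and was 5.77-fold higher (adjusted p = 2.53e-09). The largest collagen rise was in Col12a1, a fibril-associated chain of load-bearing tissue, with 9.33 and 9.06 at day 0 and 12.17 and 12.37 at day 5 and a rise of 3.07 ± 0.10, followed by Col8a1 with 2.82 ± 0.09 and the fibril-starting chain Col5a2 with 2.60 ± 0.08. Col8a2 was the chain not called, at -0.15 ± 0.11.

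All 15 genes of collagen processing rose, 12 by over 2-fold. Lox, lysyl oxidase, which cross-links collagen and elastin, read 8.82 and 8.66 at day 0 and 12.90 and 12.94 at day 5 and was 18.1-fold higher (adjusted p = 1.76e-10). Its relatives Loxl3 and Loxl1 rose by 2.51 ± 0.09 and 2.16 ± 0.07. The hydroxylases P4ha3, acting on proline, and Plod2, acting on lysine, rose by 3.94 ± 0.09 and 3.53 ± 0.11, and Crtap, of the prolyl 3-hydroxylation complex, by 2.11 ± 0.08.

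Of 20 matrix glycoprotein genes 17 rose, each by over 2-fold, and 1 fell: Eln, elastin, by 0.29 ± 0.10, a call lost whichever of the 4 pools was left out. Tnc read 9.26 and 8.73 at day 0 and 13.18 and 13.27 at day 5, and Postn, periostin, read 10.38 and 10.12 at day 0 and 13.69 and 13.60 at day 5, a rise of 3.39 ± 0.17. The thrombospondin genes Thbs2 and Thbs1 rose by 3.13 ± 0.11 and 2.49 ± 0.14, versican, Vcan, by 2.74 ± 0.11 and the hyaluronan synthase gene Has2 by 2.38 ± 0.17. The small proteoglycan genes of resting connective tissue, Dcn and Fmod, were not called, at -0.13 ± 0.07 and -0.26 ± 0.15. Of 19 proteases and inhibitors 16 rose and 2 fell. The collagenase gene Mmp13 read 7.65 and 7.72 at day 0 and 10.91 and 10.51 at day 5, a rise of 3.03 ± 0.27, the membrane-bound Mmp14 rose by 2.65 ± 0.08, and the membrane proteases Adam12 and Adam8 by 2.79 ± 0.09 and 3.03 ± 0.17. Mmp8, the collagenase of neutrophils, was not called (-0.29 ± 0.34, adjusted p = 0.468).

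Collagen and glycoprotein genes were higher at day 5 than at day 3 in most members. Against day 3, 14 of 19 collagens rose, where 6.41% of all genes did, with a median of 0.62, and 13 of 20 matrix glycoproteins rose. The collagen count was 12 whichever of the 4 pools was left out, and the glycoprotein count was 8 and 9 without the right and left day 3 pool and 9 and 7 without the right and left day 5 pool. Of the 15 collagen processing genes 7 rose from day 3, or 3 to 7 with a pool left out, while of the 19 proteases and inhibitors 5 rose and 4 fell, or 0 to 2 with a pool left out. Col12a1 rose by 1.21 ± 0.10 from day 3 (adjusted p = 5.41e-05) and by a further 0.74 ± 0.10 to day 7 (adjusted p = 0.01), and Mmp13 by 1.80 ± 0.27 from day 3. Timp1 was not called against day 3 or day 7, at -0.18 ± 0.11 (adjusted p = 0.309) and -0.44 ± 0.11 (adjusted p = 0.11). Between day 5 and day 7, 6 of the 19 collagens rose, where 0.667% of all genes did, but 1 without the right day 5 pool, 4 without the left, and 1 and 2 without the right and left day 7 pool. Col12a1 was among those lost where the right pool of either day was left out (highest adjusted p = 0.122). Of the 20 glycoproteins 3 rose to day 7, or 0 to 3 with a pool left out, and of the 15 processing genes none was called by limma, with 3 at an unadjusted p under 0.05.

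Macrophage genes rose nearly as a body. Of 29 markers 27 rose, 26 by over 2-fold, and none fell, with a median of 2.64. Adgre1, which encodes the F4/80 antigen, read 8.05 and 7.91 at day 0 and 11.33 and 11.43 at day 5 and was 10.5-fold higher (adjusted p = 1.23e-09). Cd68, of macrophage lysosomes, read 9.24 and 9.04 at day 0 and 12.43 and 12.58 at day 5, a rise of 3.36 ± 0.08, the scavenger receptor gene Msr1 rose by 3.35 ± 0.13 and the galectin gene Lgals3 by 3.26 ± 0.11. Lyve1, which marks resident macrophages and lymph vessels, was not called (0.11 ± 0.12), nor was Chil3, in the dimmest class (-0.49 ± 0.37). Summed over the list, the linear intensity was 16704 and 20363 at day 0 and 95835 and 103296 at day 5. Most members were not called against day 3: 5 of 29 fell, or 1 to 3 without 1 pool of day 3 or day 5, and Ms4a7 rose, by 0.51 ± 0.07 (adjusted p = 0.00143), while Adgre1 differed by 0.03 ± 0.10 (adjusted p = 0.85).

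Lysosomal, antigen presentation and interferon response genes rose in most members. Of 16 lysosomal genes 15 rose, 12 by over 2-fold: the cathepsin gene Ctss by 3.37 ± 0.09, Lgmn, legumain, by 2.34 ± 0.07, Grn, progranulin, by 2.22 ± 0.08 and Ctsk, a cathepsin of cells that resorb matrix, by 2.31 ± 0.16, while Lamp1 was not called (-0.02 ± 0.06). Of 12 genes of MHC class II presentation and dendritic cells 11 rose, H2-Ab1 by 2.30 ± 0.08, H2-Aa by 2.24 ± 0.08 and the invariant chain gene Cd74 by 2.16 ± 0.08. All 10 interferon response genes rose, 7 by over 2-fold, with Oasl2 at 2.24 ± 0.10, Irf7, a transcription factor of that response, at 2.11 ± 0.15 and Ifit3 at 1.6 ± 0.18. Antioxidant, heme and iron genes did not move as one: of 20, 10 rose (5 by over 2-fold) and 4 fell (3 by over 2-fold), with a median of 0.16. Hmox1, heme oxygenase 1, read 8.58 and 8.35 at day 0 and 12.25 and 12.20 at day 5 and rose by 3.76 ± 0.09, the metallothionein genes Mt2 and Mt1 rose by 2.25 ± 0.09 and 1.81 ± 0.08, and the ferritin light chain gene Ftl1 by 1.54 ± 0.08. Nqo1, a quinone reductase, fell by 1.30 ± 0.12, Sod2, the mitochondrial superoxide dismutase, by 1.27 ± 0.08 and the transferrin receptor gene Tfrc by 1.04 ± 0.11.

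Complement receptors rose and complement components depended on single pools. C3ar1 read 8.88 and 8.57 at day 0 and 12.71 and 12.80 at day 5, and C5ar1, the receptor for C5a, rose by 3.10 ± 0.12 and Cfp, properdin, by 2.47 ± 0.12. Of 8 complement genes 3 rose and 1 fell with all pools, and 6 rose and none fell without the left day 0 pool. The fall was also lost without the right day 0 or the left day 5 pool and with only the arrays of both days, and the median was 0.62 with all pools, 0.14 without the right and 1.27 without the left day 0 pool. C4b, which the liver also makes, read 8.68 and 9.89 at day 0 and 9.55 and 9.56 at day 5, with a difference of 0.27 ± 0.35 (adjusted p = 0.494) and of 0.88 without that pool (adjusted p = 0.0287). Serping1, the C1 inhibitor, read 11.95 and 12.39 at day 0 and 12.58 and 12.40 at day 5 and differed by 0.32 ± 0.17, or by 0.54 without it. The left day 0 pool held the high values of hepatocyte genes, and their part in these differences was not tested.

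Most chemokine genes were above day 0 at day 5, and some had come down since day 3. Of 28 chemokines and cytokines 21 rose, 15 by over 2-fold, and 1 fell. Ccl2, the main attractant of monocytes, read 7.84 and 7.51 at day 0 and 11.43 and 11.66 at day 5 and was 14.7-fold above day 0 (adjusted p = 1.91e-09), yet -0.78 ± 0.12 from day 3 (adjusted p = 0.00237) and -0.83 ± 0.12 from day 5 to day 7 (adjusted p = 0.0109) show a decline on both sides of day 5. Ccl7, Ccl6 and Ccl9 rose by 3.55 ± 0.10, 3.06 ± 0.13 and 2.73 ± 0.08 against day 0, and each fell against day 3 and again to day 7. Ccl8 rose by 4.09 ± 0.14 against day 0 and went up from day 3, by 0.53 ± 0.14 (adjusted p = 0.0322). Of the 28 genes 12 fell between day 3 and day 5, where 4.74% of all genes did, and 5 rose. Without the right or the left day 3 pool 7 fell, without the right day 5 pool 10 and without the left day 5 pool 4. The call of Ccl8 against day 3 was lost without the left day 3 or either day 5 pool (highest adjusted p = 0.164), and that of Ccl6 without the left pool of day 3 or day 5 (0.109). The falls to day 7 of Ccl2, Ccl6, Ccl7 and Ccl9 were all lost without the right day 7 pool (highest adjusted p 0.127, 0.161, 0.147 and 0.145 over the pools left out).

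Genes of mature neutrophils divided at day 5: of 7, 4 rose over day 0, and the 3 not called had both day 5 pools below both day 0 pools. Cxcr2, the receptor that draws neutrophils to tissue, read 7.23 and 6.66 at day 0, 10.23 and 10.59 at day 3 and 8.97 and 8.37 at day 5, a rise of 1.73 ± 0.35 over day 0 (adjusted p = 0.00129) and a fall of 1.74 ± 0.35 from day 3 (adjusted p = 0.0105). Csf3r, the receptor for granulocyte colony-stimulating factor, rose by 1.92 ± 0.22 over day 0. The calprotectin genes S100a8 and S100a9, abundant in neutrophil cytoplasm, were not called against day 0, at -0.81 ± 0.42 (adjusted p = 0.104) and -0.89 ± 0.41 (adjusted p = 0.0763), with the right day 0 pool near day 3. Without the left day 0 pool both were called as falls, with differences of -1.31 and -1.38. Of 7 mature neutrophil genes 6 fell from day 3 to day 5, and 4 did without the right pool of either day. None passed limma's adjusted threshold without the left pool of either day, where 6 had an unadjusted p under 0.05 and Cxcr2 reached an adjusted p of 0.0967. The count of rises over day 0 was 2 without the left day 0 or the right day 5 pool. Lymphocyte genes showed no common direction: 5 of 15 rose and 5 fell, beside 27.0% and 38.1% of all genes. Those that rose included Nkg7, of cytotoxic cells, by 1.02 ± 0.23 and Cd4 by 0.88 ± 0.11. Those that fell included the B cell gene Ms4a1, by 0.47 ± 0.10 in the dimmest class, while Cd3e, of T cells, was not called (-0.04 ± 0.10). Leaving out the left day 0 pool or either day 5 pool left 3 of the falls, and leaving out the left day 5 pool left 3 of the rises.

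**Figure D3:**
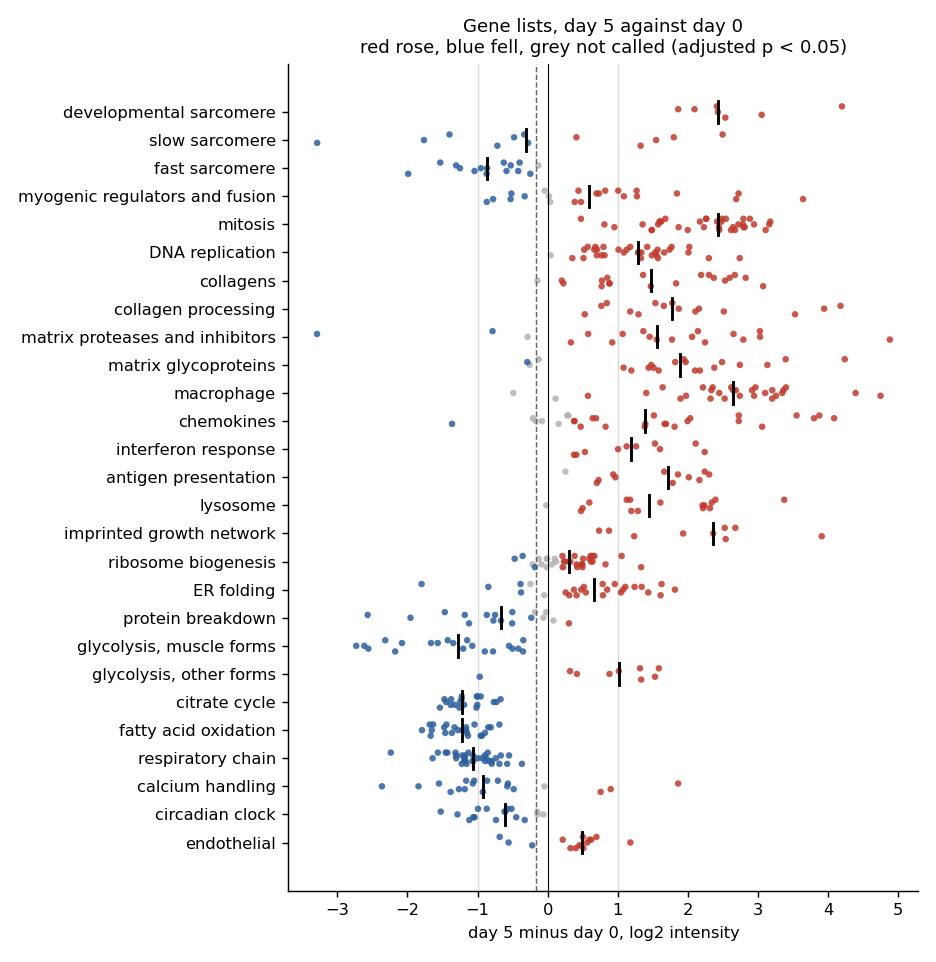
Difference between day 5 and day 0 (horizontal, log2 intensity) for each measured member of 27 gene lists, with rises in red, falls in blue, genes not called in grey, the list median as a black bar and the median of all genes, -0.16, as a dashed line. The mitosis median lies at 2.43 and the respiratory chain median at -1.07, and neither list crosses 0.

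Imprinted genes of the fetal growth network rose together. Such genes are read from 1 parental copy, and several are high in fetal tissue and in regenerating muscle. Of 9 measured, 9 rose, 7 by over 2-fold, with a median of 2.36. Mest read 9.15 and 8.83 at day 0 and 12.78 and 13.01 at day 5 and was 15-fold higher (adjusted p = 2.18e-09). Plagl1, a zinc finger regulator of the network, rose by 2.68 ± 0.10, Peg3 by 2.54 ± 0.12, the noncoding RNA gene Meg3 by 2.36 ± 0.10 and Grb10, an adaptor that restrains insulin receptor signalling, by 1.93 ± 0.07. Dlk1, a Notch-like membrane protein, read 8.72 and 8.87 at day 0 and 9.6 and 9.46 at day 5, a rise of 0.73 ± 0.11. All 9 also rose between day 3 and day 5, and 6 went on to rise between day 5 and day 7, Dlk1 by 1.08 ± 0.11 (adjusted p = 0.00291). The count to day 7 was 2 without the right day 5 pool and 2 and 3 without the right and left day 7 pool, with Dlk1 called in each of these fits. The network was named after earlier results of these data were known.

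Igf2, the fetal insulin-like growth factor, belongs to the same network. It read 9.93 and 9.89 at day 0 and 12.41 and 12.46 at day 5, a rise of 2.52 ± 0.09 or 5.75-fold (adjusted p = 2.82e-09), of which 2.11 ± 0.09 came after day 3 (adjusted p = 1.47e-06). Igf1, the growth factor made by muscle and macrophages as well as the liver, read 9.80 and 10.39 at day 0 and 11.30 and 11.33 at day 5 and rose by 1.22 ± 0.22 (adjusted p = 0.000571), and by 1.52 without the left day 0 pool. Of the binding proteins, Igfbp3 rose by 2.27 ± 0.12 and Igfbp4 by 1.30 ± 0.16, while Igfbp5 and Igfbp6 were not called, at -0.05 ± 0.07 and 0.12 ± 0.07. Akt1, the kinase below the receptor, rose by 1.08 ± 0.08. Ddit4l, an inhibitor of the mTOR complex that drives protein synthesis, read 12.76 and 12.71 at day 0 and 10.51 and 10.25 at day 5 and fell by 2.35 ± 0.11 (adjusted p = 1.98e-08).

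Myostatin, the secreted brake on muscle mass, fell. Mstn read 11.39 and 11.25 at day 0 and 8.62 and 7.97 at day 5, a difference of -3.03 ± 0.19 or 8.15-fold lower (adjusted p = 1.94e-07). Its receptor gene Acvr2b fell by 0.94 ± 0.12, and the related receptor genes Acvr2a and Acvr1 were not called, at -0.10 ± 0.07 and -0.14 ± 0.06. Fst, follistatin, which binds myostatin and activin, rose by 0.50 ± 0.09, Fstl1 by 2.35 ± 0.08, and Inhba, the activin A subunit, by 1.31 ± 0.13. Of the 16 genes of this axis 6 rose and 6 fell, beside 27.0% and 38.1% of all genes. In the TGF-beta and BMP group 12 of 18 rose, with Tgfb1 at 1.90 ± 0.09, its receptor gene Tgfbr2 at 1.27 ± 0.07, the induced matrix protein gene Tgfbi at 2.06 ± 0.09 and the latency protein gene Ltbp2 at 1.97 ± 0.12. Tgfb2 and Bmp4 were not called (-0.10 ± 0.10 and 0.05 ± 0.09), and Bmp6 fell by 0.90 ± 0.08. Id2, an inhibitor of helix-loop-helix factors, had day 0 pools far apart, 9.36 and 10.66, against 11.52 and 11.69 at day 5 (1.59 ± 0.30).

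Of 10 secreted Wnt modulators 3 rose and 3 fell, beside 27.0% and 38.1% of all genes, and their median of -0.04 changed sign without the right day 0 or the right day 5 pool. Sfrp2 read 8.09 and 8.22 at day 0 and 11.86 and 12.24 at day 5 and was 14.8-fold higher (adjusted p = 8.9e-09), Sfrp1 rose by 3.07 ± 0.10 and Sfrp4 by 1.52 ± 0.12. Frzb and Sfrp5 of the same family fell, by 1.40 ± 0.11 and 0.89 ± 0.16. The ligand gene Wnt5a was not called (-0.10 ± 0.09). In the natriuretic system, to which Ostn belongs, 5 of 7 genes fell and none rose. Npr2, the receptor for the C-type peptide, fell by 1.06 ± 0.09 and the peptide gene Nppc by 0.78 ± 0.14, while the cardiac peptide gene Nppb was not called (-0.08 ± 0.14).

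Genes of mechanical load and the Z-disc went both ways: of 18, 5 rose and 7 fell, shares near the 27.0% and 38.1% of all genes, with a median of -0.06. Ankrd1, a titin-binding stretch response protein, read 9.21 and 8.89 at day 0 and 12.66 and 12.55 at day 5 and rose by 3.56 ± 0.13 (adjusted p = 3.69e-09), Csrp3, the muscle LIM protein, by 1.29 ± 0.11 and Mustn1 by 0.83 ± 0.08. Other Z-disc genes fell, with Fhl3 at -1.30 ± 0.09 and Ldb3 at -0.98 ± 0.10. Ankrd1 had come down from day 3, by 0.52 ± 0.13 (adjusted p = 0.0263), a call lost whichever of the 4 pools was left out (highest adjusted p = 0.152). Of 20 immediate early genes 12 rose and 3 fell. Myc, the growth transcription factor, read 8.20 and 8.14 at day 0 and 10.70 and 10.78 at day 5, a rise of 2.57 ± 0.09, Fosl1 rose by 1.79 ± 0.20 and Egr2 by 1.66 ± 0.09. Jun was not called (-0.09 ± 0.10), and Nr4a1, a nuclear receptor of working muscle, read 12.17 and 12.04 at day 0 and 10.40 and 10.19 at day 5 and fell by 1.81 ± 0.10.

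Most genes of the protein-making machinery that rose did so by under 2-fold, and some fell. Of 35 ribosome biogenesis genes 22 rose, 2 by over 2-fold, and 3 fell, or 1 without either day 5 pool, with a median of 0.30. Npm1, nucleophosmin, rose by 1.33 ± 0.10, Nop58, a nucleolar protein, by 1.05 ± 0.12 and Fbl, fibrillarin, by 0.64 ± 0.08, while Polr1a, the large subunit of RNA polymerase I, was not called (-0.13 ± 0.08). Of 25 ribosomal protein genes 21 rose, with Rpl12 at 1.27 ± 0.11 and Rps4x at 0.70 ± 0.06, and 1 fell: Rpl3l, the form of ribosomal protein L3 made in striated muscle, which read 12.13 and 12.22 at day 0 and 9.67 and 8.91 at day 5 and fell by 2.88 ± 0.21 (adjusted p = 5.29e-07). Of 14 translation factors 8 rose (3 by over 2-fold) and 5 fell (1 by over 2-fold), beside 27.0% and 38.1% of all genes. Eef1a1, the general form, read 12.81 and 12.86 at day 0 and 14.02 and 14.08 at day 5 and rose by 1.22 ± 0.07, and Eef1a2, the form of adult muscle and neurons, read 13.18 and 13.18 at day 0 and 12.27 and 11.89 at day 5 and fell by 1.10 ± 0.12. Eef2k, the kinase that slows elongation, fell by 0.92 ± 0.09, and Eef2 was not called (0.09 ± 0.07).

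Genes for the supply of amino acids and for the folding of secreted proteins rose more, though not in every member. Of 17 genes of amino acid transport and synthesis 13 rose, 10 by over 2-fold. Slc7a5, the carrier of leucine and other large amino acids, rose by 1.98 ± 0.10, Slc38a1, a glutamine carrier, by 2.5 ± 0.13, Asns, asparagine synthetase, by 2.20 ± 0.13 and Psat1, of serine synthesis, by 2.29 ± 0.13, while Smox, spermine oxidase, fell by 1.93 ± 0.10. Of 26 endoplasmic reticulum genes 20 rose and 4 fell. The disulfide isomerase genes Pdia3 and Pdia4 rose by 1.61 ± 0.08 and 1.62 ± 0.11, and the degradation factor gene Edem1 by 1.81 ± 0.12. Trib3 and Dnajb9, which cell stress induces, were not called, at -0.05 ± 0.08 and -0.25 ± 0.11, and Chac1, another such gene, fell by 1.80 ± 0.12.

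Protein breakdown genes of atrophying muscle fell. Of 17, 12 fell, 5 by over 2-fold, and 1 rose. Fbxo32, the ubiquitin ligase atrogin-1, read 12.34 and 12.33 at day 0 and 10.91 and 10.82 at day 5 and fell by 1.47 ± 0.08 (adjusted p = 6.07e-08). Trim63, the ligase MuRF1, fell by 0.75 ± 0.09, Klhl38, a ligase adaptor, by 2.57 ± 0.10 and Asb4 by 1.96 ± 0.11. Foxo1, a transcription factor of this programme, was not called (-0.06 ± 0.08), and Foxo4 fell by 1.12 ± 0.10. From day 3 to day 5 Fbxo32 and Trim63 fell by 0.45 ± 0.08 and 0.65 ± 0.09. For Trim63 this was most of its fall of 0.75 against day 0. Both fell again to day 7, by 0.43 ± 0.08 and 0.52 ± 0.09. The call of Fbxo32 against day 3 was lost without the left day 5 pool (adjusted p = 0.055), and both calls to day 7 were lost without the right day 5 or either day 7 pool (highest adjusted p 0.247 and 0.225).

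Genes of energy metabolism fell throughout the 4 lists given here. In whole muscle, a smaller share of fibre RNA and a fall within fibres cannot be told apart. All 34 genes of oxidative phosphorylation fell, 19 by over 2-fold, with a median of -1.07. All 19 genes of the citrate cycle and pyruvate dehydrogenase fell, 15 by over 2-fold, with a median of -1.23. All 23 of fatty acid uptake and oxidation fell, 17 by over 2-fold, with a median of -1.22. All 20 of muscle glycolysis and glycogen fell, 13 by over 2-fold, with a median of -1.28. In every gene of these 4 lists both day 5 pools lay below both day 0 pools.

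Forms made in muscle and heart were among the members with the largest falls. Cox7a1, the muscle and heart subunit of cytochrome oxidase, read 13.34 and 13.35 at day 0 and 11.37 and 10.84 at day 5 and fell by 2.24 ± 0.15 (adjusted p = 2.33e-07), and Cox8b, another, by 1.64 ± 0.16. Sdhb, of succinate dehydrogenase, fell by 1.57 ± 0.10, Acadm, the medium-chain acyl-CoA dehydrogenase, by 1.79 ± 0.09, Lpl, lipoprotein lipase, by 1.67 ± 0.09 and Idh3a by 1.45 ± 0.09. Phkg1, the catalytic subunit of muscle phosphorylase kinase, read 12.19 and 12.17 at day 0 and 9.75 and 9.14 at day 5 and fell by 2.73 ± 0.18, Gpd1, of the glycerol phosphate shuttle, by 2.62 ± 0.19 and Slc2a4, the insulin-responsive glucose transporter GLUT4, by 2.32 ± 0.18. Their regulators fell too: 9 of 11, with Ppargc1a, the coactivator of mitochondrial genes, at 11.24 and 11.16 at day 0 and 9.20 and 8.65 at day 5 (-2.28 ± 0.17, adjusted p = 6.53e-07), Ppara at -2.15 ± 0.20 and Esrrg at -1.43 ± 0.11. Ppargc1a had been lower at day 3, where it read 8.09 and 8.37, and rose by 0.69 ± 0.17 to day 5 (adjusted p = 0.0282), a call lost where the right pool of either day was left out (highest adjusted p = 0.201).

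Glucose genes of other cell types rose in the same muscle. Of 9, 8 rose, 5 by over 2-fold, with a median of 1.01. Slc2a1, the glucose transporter GLUT1, read 10.64 and 10.63 at day 0 and 12.04 and 11.86 at day 5, a rise of 1.32 ± 0.08 (adjusted p = 1.06e-07), Pgd, of the pentose phosphate pathway, rose by 1.59 ± 0.11 and the phosphofructokinase genes Pfkp and Pfkl by 1.53 ± 0.14 and 1.33 ± 0.09. Slc16a3, a lactate carrier of fast fibres and of macrophages, fell by 0.97 ± 0.10. The same contrast stood in phosphate metabolism. Ckb, brain-type creatine kinase, rose by 1.22 ± 0.15, and Ckmt2, the mitochondrial form of muscle, read 13.14 and 13.21 at day 0 and 11.10 and 10.32 at day 5 and fell by 2.47 ± 0.19. Ampd2 and Ampd3, AMP deaminases of other tissues, rose by 1.20 ± 0.10 and 1.09 ± 0.09, and Ampd1, the muscle form, fell by 1.77 ± 0.12.

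Of 19 genes of excitation and calcium handling 15 fell and 3 rose. Clcn1, the chloride channel that keeps the fibre membrane stable, read 11.37 and 11.32 at day 0 and 9.27 and 8.69 at day 5 and fell by 2.36 ± 0.16. Jph1 and Jph2, junctophilins that hold the triad together, fell by 1.84 ± 0.13 and 1.27 ± 0.09, and Stac3, needed for the coupling itself, by 1.39 ± 0.10. Casq2, the calsequestrin of heart and of slow and embryonic fibres, read 9.43 and 9.32 at day 0 and 11.25 and 11.22 at day 5 and rose by 1.86 ± 0.11 (adjusted p = 1.08e-07), of which 1.16 ± 0.11 came after day 3. Cacng1 was not called (-0.05 ± 0.08). In the dystrophin complex 4 of 10 genes fell and 3 rose, shares near the 38.1% and 27.0% of all genes. Dmd fell by 0.80 ± 0.13 and Sgca by 1.03 ± 0.09. Utrn, utrophin, the fetal relative of dystrophin, rose by 0.50 ± 0.07 and the laminin chain gene Lama4 by 1.29 ± 0.08.

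The circadian clock list fell. Of 17 genes 14 fell, 5 by over 2-fold, and none rose, with a median of -0.62. Nr1d1, the repressor REV-ERB alpha, read 12.80 and 12.75 at day 0 and 11.59 and 11.39 at day 5 and fell by 1.29 ± 0.08 (adjusted p = 2.17e-07). The output genes Hlf and Dbp fell by 1.53 ± 0.08 and 1.12 ± 0.09, and Rora by 1.06 ± 0.10. Clock itself was not called (-0.15 ± 0.08). The labels do not give the hour at which the muscles were taken, and its part in these values was not tested.

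Of 15 endothelial markers 12 rose and 3 fell, with 1 past 2-fold, and the median was 0.48. Pecam1 read 10.28 and 10.33 at day 0 and 10.96 and 11.05 at day 5, a rise of 0.70 ± 0.07, Cdh5, the junction cadherin, rose by 0.62 ± 0.07 and Plvap, of fenestrated vessels, by 1.18 ± 0.07. Flt1, a receptor for vascular endothelial growth factor, fell by 0.69 ± 0.09. Of 11 vessel growth genes 6 rose (5 by over 2-fold) and 4 fell (2 by over 2-fold), and 2 fell without the right day 0 or the left day 5 pool. Over all genes 27.0% rose and 38.1% fell, so the share of falls in this list was near that of all genes. Vegfa, the growth factor that fibres secrete, read 11.97 and 11.99 at day 0 and 10.78 and 10.44 at day 5. It fell by 1.38 ± 0.12 (adjusted p = 1.57e-06), and Vegfb fell by 1.40 ± 0.08. Apln, apelin, Pgf, placental growth factor, and Angpt2, angiopoietin 2, rose by 2.44 ± 0.12, 1.94 ± 0.14 and 1.35 ± 0.09. Among mural cell genes Acta2, smooth muscle actin, rose by 1.01 ± 0.09 and Pdgfrb by 0.92 ± 0.08, and Myh11, smooth muscle myosin, fell by 1.20 ± 0.09.

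Markers of other cell types did not all rise. Their counts stand beside 27.0% of all genes that rose and 38.1% that fell. Of 9 measured markers of fibro-adipogenic progenitors 4 rose and 2 fell, with Pdgfra at 0.87 ± 0.09, Osr1 at 1.25 ± 0.10, and Gsn at -1.24 ± 0.09. Of 7 tendon genes 3 rose and 2 fell: Scx, the transcription factor of tendon cells, read 8.98 and 9.10 at day 0 and 10.44 and 10.61 at day 5, a rise of 1.49 ± 0.09, and Tnmd, tenomodulin, rose by 0.71 ± 0.17. Of 8 adipocyte genes 6 fell, Retn, resistin, by 1.46 ± 0.15 and Lep, leptin, in the dimmest class, by 0.84 ± 0.16, and 3 fell without the right day 5 pool. Adipoq, adiponectin, was not called, and its pools moved in opposite directions (9.15 and 8.67 at day 0 and 8.09 and 9.04 at day 5), but it was called as a fall without the left day 5 pool (-0.82, adjusted p = 0.0338). Of 8 Schwann cell genes 6 fell, Sox10 by 0.50 ± 0.08 and Mbp, myelin basic protein, by 0.37 ± 0.13, and Pmp22, also made by fibroblasts, rose by 0.33 ± 0.08. The call of Mbp was lost without either day 0 pool or the right day 5 pool (highest adjusted p = 0.224).

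Of all genes, 11.2% changed between day 3 and day 5: 1279 rose (6.41%) and 946 fell (4.74%), and 143 moved by over 2-fold (0.717%), 115 up (0.577%) and 28 down (0.140%). The total was 697 and 1204 without the right and left day 3 pool and 1651 and 790 without the right and left day 5 pool. The 8 largest rises were Myh3, Myh8 and Igf2, given above, and Tecrl, of the dimmest class, with 5.44 and 4.92 at day 3 and 7.71 and 7.86 at day 5 (2.61 ± 0.21), Lrrc15, of matrix-making fibroblasts (2.12 ± 0.16), Zdbf2, an imprinted gene (2.12 ± 0.14), C1qtnf3 (2.04 ± 0.21) and Ccdc141 (1.96 ± 0.11). The 8 largest falls were Mirt2 (-1.95 ± 0.32), S100a8 (-1.87 ± 0.42), Il1f9 (-1.85 ± 0.26), S100a9 (-1.81 ± 0.41), Cxcr2, Lcn2, lipocalin 2 (-1.69 ± 0.37), and the neutrophil chemokines Cxcl5 (-1.55 ± 0.16) and Cxcl3 (-1.47 ± 0.26). Of these, S100a8, S100a9, Cxcr2 and Lcn2 stand in the neutrophil lists, Cxcl5 in the chemokine list, and Mirt2, Il1f9 and Cxcl3 in none. For Lcn2 the day 3 pools read 10.86 and 11.54 and the day 5 pools 9.76 and 9.27, below the day 0 pools of 11.35 and 10.98. The calls of S100a8, S100a9, Cxcr2 and Lcn2 were lost where the left pool of either day was left out (highest adjusted p 0.119, 0.134, 0.0967 and 0.127), and that of S100a9 also without the right day 3 pool. Those of Mirt2, Il1f9, Cxcl5, Cxcl3 and the 8 rises were kept in all 4 fits.

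Between day 5 and day 7, 1.15% of genes changed: 133 rose (0.667%) and 97 fell (0.487%), and 15 moved by over 2-fold (0.0752%), 8 up (0.0401%) and 7 down (0.0351%). The total was 29 and 327 without the right and left day 5 pool and 21 and 60 without the right and left day 7 pool. The 8 largest rises were Prss35 (1.5 ± 0.17), Nrk (1.5 ± 0.16), Tnmd (1.42 ± 0.17), the growth factor gene Ptn, pleiotrophin (1.37 ± 0.12), Edil3 (1.10 ± 0.13), Dlk1, the angiotensin receptor gene Agtr2 (1.01 ± 0.10) and the collagen receptor gene Itga11 (0.98 ± 0.12). Tnmd, a tendon gene, read 10.23 and 9.88 at day 5 and 11.44 and 11.50 at day 7. The 8 largest falls were Sprr1a (-1.18 ± 0.22), the platelet chemokine gene Ppbp (-1.16 ± 0.24), Alas2, of heme synthesis in red cells (-1.14 ± 0.16), Cxcl5 (-1.10 ± 0.16), Cd209f (-1.10 ± 0.18), the carbonic anhydrase gene Car4 (-1.01 ± 0.16), Cxcl14 (-1.0 ± 0.13) and Clu, clusterin (-0.99 ± 0.14). Ppbp read 12.56 and 12.49 at day 5 and 10.92 and 11.81 at day 7. All 8 falls, and the rises of Edil3 and Itga11, were lost without the right day 7 pool, and 6 of the 8 rises were kept whichever of the 4 pools was left out, with adjusted p-values of up to 0.05.

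**Figure D4:**
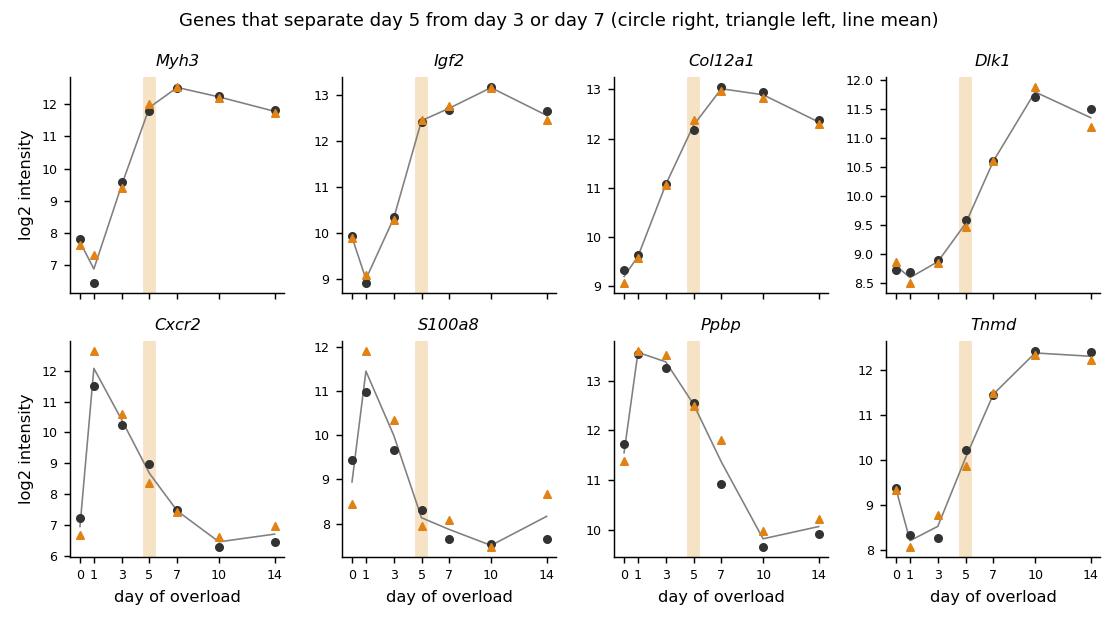
Log2 intensity (vertical, a separate scale for each gene) against the day of overload (horizontal) in the right (circle) and left (triangle) pools for 8 genes, with the mean of each day as a line and day 5 shaded. Myh3 climbs from 9.59 and 9.38 at day 3 to 11.80 and 12.02 at day 5, Cxcr2 comes down over the same days, and Tnmd and Dlk1 are higher at day 7 than at day 5.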

How the data were processed

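Pooled plantaris RNA was hybridised to Mouse Gene 1.0 ST arrays of Affymetrix, 2 per day. The deposited values are linear intensity values, 1 per probe set, made by the authors with Partek, per the submitters' processing notes, whose version, background correction and normalization are not given in the sources used here. The RNA input is given as 100 ng by the design and 250 ng by the protocol. Intensities ran from 5.9 to 29501.5 and array medians from 242.8 to 254.9, and the small number of arrays sets the precision.

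Log2 of the deposited intensity was used as it stands. Of 35556 probe sets, 21789 had 1 gene symbol, 1621 several and 12146 none in the platform annotation, which gave 19938 genes, and for 999 genes with several probe sets that with the highest mean was taken. All 14 arrays were fitted in limma 3.58.1 (R 4.3.3) with 1 mean per day and 7 residual degrees of freedom. The contrasts were tested, two-sided, with Benjamini-Hochberg adjustment over all genes and a threshold of 0.05: day 5 against day 0, day 5 against day 3 and day 7 against day 5. The median standard error of a difference was 0.099.

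The 57 gene lists were written from general knowledge, with 972 entries of which 906 were measured, and some genes stand in several lists. The members and lists were chosen with earlier results of these data known, so counts over a list are descriptions and no list was tested. Genes were named by rule: the 12 largest changes each way against day 0 and 8 each way in the other contrasts among genes whose pools did not overlap, up to 6 called and 2 uncalled members of each list, and a fixed panel, without gene models, receptor and antibody segments, small RNAs and Y-linked genes. Eln, the fall in the matrix glycoprotein list, was named outside this rule and is not in the counts of genes named by it. Spp1, Ccnb1, Cdkn1a and Rpl3 of the panel were not analysed here. Promoters were matched by symbol, the first entry of each gene was used, and the neuromuscular list was added to the promoter search after its values had been seen. In simulated data of 19938 genes, 200 were given known changes between day 5 and day 0 and the others none. Of those changed, 76% at 1.5-fold, 96% at 2-fold and 100% at 4-fold were called, with 6 false calls. In the real comparison 65.1% of genes were called, so the simulated rates need not hold there. Alternatives were other scalings, a filter on dim genes, the mean of a gene's probe sets, other variance priors, side as a block, only the arrays compared, and each array left out.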

Additional observations from a re-analysis of the deposited data

Results flagged for a closer look

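In 3 of the genes named, the difference between day 5 and day 0 had opposite signs in the right and the left pools. With 1 pool of each side on each day, this difference between the sides was not tested. Adipoq, adiponectin, differed by -1.06 between the right pools and by 0.37 between the left pools. C4b, complement component 4B, differed by 0.88 between the right pools and by -0.33 between the left pools. Mmp8, neutrophil collagenase, differed by -0.94 between the right pools and by 0.37 between the left pools. None of the 3 was called with all pools. Adipoq was called as a fall without the left day 5 pool (-0.82, adjusted p = 0.0338), and C4b as a rise without the left day 0 pool (0.88, adjusted p = 0.0287).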

How the results depend on the processing

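Against day 0 the count of changed genes, 12980, was 2579 with a 2-fold threshold and 9963 to 11704 with 1 pool left out. The falls, 7596, were 4678 without the dimmest of 3 classes, a filter that takes 6646 genes out of the fit. That class was set by the mean over all arrays, and so partly by the falls themselves. Of 446 genes named by the rule, 387 kept their side of the threshold under every alternative, 26 lost a call in some alternative and 33 gained one. Quantile normalization gave a call to 15 genes that had none with the values as deposited, among them Acvr1, Acvr2a, Dcn, Dnajb9, Foxo1, Polr1a, Rapsn and Wnt5a, all as falls, and the trended prior gave one to Acta1 (adjusted p = 0.0218). Day 5 against day 3 gave 1424 genes (561 fell) with only the arrays of those days, 143 past 2-fold, and 697 to 1651 with 1 pool left out (519 to 1047 rose, 178 to 604 fell). Day 7 against day 5, with 230 genes, gave 363 (164 fell) without the dimmest class, 383 (216 rose, 167 fell) with a trended prior, 93 (60 rose, 33 fell) with only those arrays and 15 past 2-fold. With 1 pool left out it gave 21 to 327 (14 to 153 rose, 7 to 174 fell), and 7 to 33 past 2-fold. The cause of these shifts was not tested, and a day left with 1 pool borrows its spread from the others. Of the 164 genes named by the rule and called between day 3 and day 5, 79 kept their call in all 4 such fits, and of the 44 called between day 5 and day 7, 9 did.

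List medians near 0 changed sign where 1 pool was left out: the cell cycle inhibitors ranged from -0.058 to 0.005, the load and Z-disc genes from -0.165 to 0.078, the Wnt modulators from -0.092 to 0.061 (0.013 without the right day 0 pool) and the lymphocyte markers from -0.005 to 0.098. Quantile normalization put the lymphocyte median at -0.067. The share of rises among the calls was 41.5%, 40.5% after quantile normalization, 39.2% with equal medians and 52.4% without the dimmest class.

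Sides are the replicate numbers, and the labels do not tie them to animals. In the main fit the sides were not taken as pairs. The right minus left difference at day 5 correlated across genes at 0.38 with day 0, 0.31 with day 3 and -0.41 with day 7. These values do not settle whether the sides of day 0 and day 5 share an effect, which was not tested. With side as a replicate block the counts were 12752 (5329 rose, 7423 fell), 1878 and 173, and Mymx lost its call (adjusted p = 0.0519).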
